A study of Homo sapiens with 8 samples.

Results

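Nascent RNA of 9 genes of the DNA double-strand break response was followed in 8 libraries made from 2 lines of human colorectal cancer cells. The genes were ATM, ATR, CHEK1, BRCA1, BRCA2, FANCD2, FANCI, PRKDC and XRCC5. They were found by their symbols among 18638 gene models, and all 9 were matched, had reads in every library and passed the filter on low counts in both cell lines. The choice used symbols only and no measured value.

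Nascent RNA was collected by factory-seq, in which nuclei are lysed under native conditions and RNA held at sites of transcription is released by caspases. DLD-1 cells carried an auxin degron with a fluorescent tag on POLR2A (mAID-mClover) and a Tet-controlled OsTIR1, so that RPB1, the large catalytic subunit of RNA polymerase II, could be degraded. They were sampled untreated (control, 2 libraries) and after 14 h of auxin (2 libraries). HCT116 cells carried the degron on TOP2A, a type II topoisomerase, and were sampled as untreated TOP2A-mAID cells (control, 2 libraries) and as a group with the genotype written TO2B-/--TOP2A-mAID (2 libraries), called here the group labelled TOP2B-/-. Titles of that last group read as control, while its treatment field and count columns read as auxin for 14 h. Genotype and auxin therefore cannot be told apart in HCT116. Depletion was set up with 24 h of doxycycline, which induces the plant protein TIR1, before auxin at 500 µM, and the labels do not say whether untreated cells received doxycycline. All titles describe asynchronous cells, while the protocol mentions sorting of G1 cells for some. Each group is a single engineered line, and the labels do not say whether the 2 libraries of a group came from separate cultures, so p-values measure only the spread between these libraries.

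A double-strand break is first read by large kinases of the phosphatidylinositol 3-kinase-related family. ATM answers to broken ends, ATR to single-stranded DNA at resected ends and stalled forks, and DNA-PKcs, the product of PRKDC, to ends held by the Ku heterodimer. Breaks are then rejoined directly by end joining or copied from the sister chromatid by homologous recombination, in which BRCA1 and BRCA2 act, while the Fanconi pathway handles DNA crosslinks that block replication.

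Most of these genes are long, and reads were counted over the whole gene model, introns included. On GRCh38 the kinase genes ATM (chromosome 11, 108222832 to 108369099, plus strand, 146.3 kb) and ATR (chromosome 3, 142449235 to 142578826, minus strand, 129.6 kb) were among the longest of the 9. CHEK1 (chromosome 11, 125625136 to 125676255, plus strand) was the shortest at 51.1 kb. The recombination genes were BRCA1 (chromosome 17, 43044295 to 43125483, minus strand, 81.2 kb) and BRCA2 (chromosome 13, 32315480 to 32399672, plus strand, 84.2 kb). The Fanconi genes were FANCD2 (chromosome 3, 10026429 to 10101930, plus strand, 75.5 kb) and FANCI (chromosome 15, 89243963 to 89317131, plus strand, 73.2 kb). For end joining there were PRKDC, the longest at 187.1 kb, and XRCC5 (chromosome 2, 216109297 to 216206293, plus strand, 97.0 kb), which encodes Ku80. Even CHEK1 was longer than 70.4% of all gene models.

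RefSeq promoter windows on GRCh38.p14, from 250 bases before to 50 bases after the listed start, were matched for 6 of the 9 genes. The stretches printed here are 30 bases each, 5′ to 3′ on the strand of the gene, and show one match per gene and motif with the motif in capitals. Capitals mark a box bound by NF-Y (CCAAT), a GC box (GGGCGG) or an element like the cell cycle homology region (TTTGAA), each as written or as its reverse complement. They are shown because CCAAT and cell cycle elements are common in genes induced for replication. Whether any motif bears on the changes reported below was not tested.
ATM, TTTGAA, chr11:108223035-108223064, plus strand: agtcacgcagggTTTGAAccggaagcggga
ATM, CCAAT on the other strand, chr11:108222867-108222896, plus strand: aagtcgctggccATTGGtggacatggcgca
ATR, GC box on the other strand, chr3:142578903-142578932, minus strand: accgacgcacgcCCGCCCgcttgccccgcc
CHEK1, CCAAT on the other strand, chr11:125626112-125626141, plus strand: ctagcgcaggggATTGGagagactcctgcg
CHEK1, GC box, chr11:125626133-125626162, plus strand: actcctgcggagGGGCGGtttcggagggtg
BRCA1, CCAAT, chr17:43125522-43125551, minus strand: cagactgggtggCCAATccagagccccgag
FANCD2, GC box, chr3:10026443-10026472, plus strand: gtcgaaaactacGGGCGGcgacggcttctc

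Both strands were searched for 6 motifs in all. CCAAT was found in the windows of ATM, CHEK1 and BRCA1 and in 34.6% of all 35116 windows of this length. GGGCGG was found for ATR, CHEK1 and FANCD2 and in 45.0% of all windows, and TTTGAA was found for ATM alone and in 15.2% of all windows. The E2F-like TTTCGCGC and TTTGGCGC, present in 0.515% and 0.652% of windows, and TTCGAA, present in 1.45%, matched none of the 6 windows, and BRCA2 held no match to any of the 6 motifs. A match is a description of letters and not of binding. The listed start of the CHEK1 window lies 1088 bp from the start of the counted model, so the window belongs to another transcript start. The listed starts also differ from the counted ones for ATM (235 bp), BRCA1 (119 bp), ATR (93 bp), BRCA2 (28 bp) and FANCD2 (8 bp).

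Libraries differed in depth and in reads over genes that should be silent, and in DLD-1 both moved with auxin. Total counts were between 10739622 and 14183633 in the auxin libraries and between 32129400 and 62626875 in the other 6. Silent genes of a line were defined as the models with fewest reads per kb in the controls of the other line (3111 genes). Their read density, extended over all gene models, equalled 2.24% and 9.02% of all counts in controls of DLD-1 and 39.5% and 59.5% after auxin. In HCT116 it amounted to between 0.266% and 3.04%. Colon epithelial markers were read in all libraries (8 of 8 genes, summed level 4621 to 6291 CPM in DLD-1 and 2961 to 4886 CPM in HCT116), although LGALS4 reached at most 1.13 CPM and VIL1 at most 0.840 CPM in HCT116. In DLD-1, 3 of these 8 were called lower after auxin (CDX2 at -3.51, KRT18 at -1.72 and KRT19 at -1.62, edgeR), beside 35.0% of all genes. EPCAM (0.38) and VIL1 (0.60) lay above 0 and were not called. With silent-gene density subtracted, 1 of 7 tested was lower and 4 higher, beside 32.1% and 27.7% of all genes. Markers of other cell types summed to 4.25 and 14.0 CPM in the DLD-1 controls against 159 and 148 CPM after auxin. There 5 of 7 were called higher, beside 5678 of all 17625 genes, and PECAM1 alone reached 119 and 92.8 CPM. With silent-gene density subtracted, only 2 of the 7 were tested and 2 were higher, beside 27.7% of all genes. In HCT116 the markers of other cell types summed to 46.9 and 47.4 CPM in the controls. In the group labelled TOP2B-/- they summed to 34.3 and 30.3 CPM. No marker of either list was at 0 in all 4 libraries of a line. TOP2B itself, the gene named as knocked out, had 188 and 186 CPM in the HCT116 controls and 134 and 134 CPM in the group labelled TOP2B-/- (log2 fold change -0.50, edgeR adjusted p = 0.0269). Nascent reads over a knocked-out gene need not vanish, so this checks the label only in part. In bulk samples such as these, fewer cells of a type and less RNA per cell cannot be told apart.

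In the control cells of both lines the end joining genes were read most densely. Per kb of gene, on CPM scaled by TMM factors (reads per total reads of a library, as used from here on), PRKDC stood at 8.17 ± 1.96 CPM per kb in DLD-1 and 9.13 ± 0.294 in HCT116 (SD, n = 2). XRCC5 followed at 5.64 ± 0.793 in DLD-1 and 7.06 ± 0.302 in HCT116, and FANCI was the third in both lines at 3.46 ± 0.333 and 3.43 ± 0.105. PRKDC, XRCC5 and FANCI kept these first 3 places by mean in all 4 groups. After auxin in DLD-1 the spreads of FANCI (1.59 ± 0.314) and FANCD2 (1.56 ± 0.294) overlapped, though FANCI was slightly higher in each library. In the DLD-1 controls ATM (3.08 ± 0.251) and ATR (2.96 ± 0.101) came next. Their spreads overlapped, as did those of ATM and FANCI, though each control library ranked FANCI above ATM and ATM above ATR. BRCA1 (2.28 ± 0.125), FANCD2 (1.96 ± 0.262), BRCA2 (1.92 ± 0.0054) and CHEK1 (1.64 ± 0.0018) closed the order, with FANCD2 and BRCA2 not separated. In the HCT116 controls ATM (2.42 ± 0.0245) was followed by FANCD2 (2.32 ± 0.0474), ATR (2.20 ± 0.0145), BRCA1 (1.49 ± 0.0624), CHEK1 (1.43 ± 0.0570) and BRCA2 (1.31 ± 0.0076). The spreads of BRCA1 and CHEK1 overlapped, though BRCA1 was higher in each control library. Levels were set within a line, since the count tables of the lines were scaled separately.

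**Figure D1:**
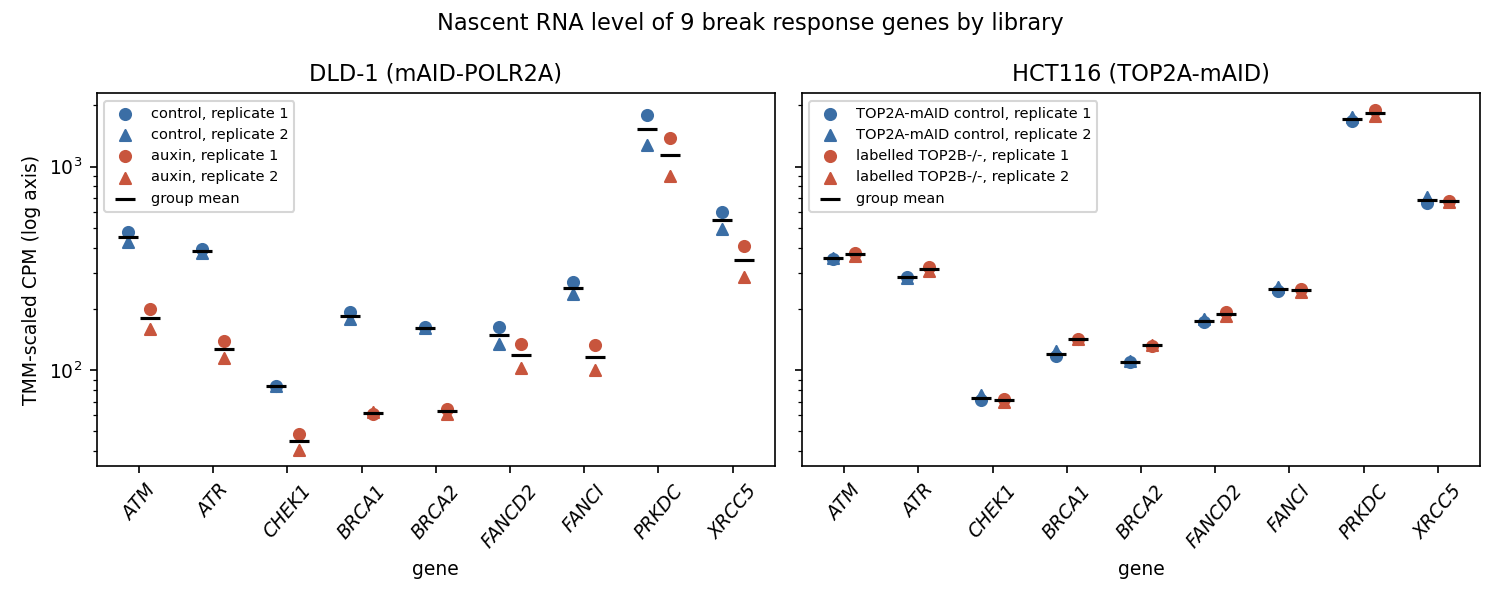
Level of each of the 9 genes (x axis) in each of the 8 libraries, as TMM-scaled CPM on a log axis, for DLD-1 (left) and HCT116 (right). Points are single libraries and black bars are means of 2 libraries. Red auxin points of DLD-1 lie below the blue control points for 8 genes and overlap them for PRKDC, whereas in HCT116 the 2 groups lie close together for every gene.

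The first comparison asked what loss of RPB1 did to these genes in DLD-1. After auxin, 6 of 9 genes fell (ATR, BRCA1, BRCA2, ATM, FANCI and CHEK1), with log2 fold changes from -1.59 to -0.91, and 0 of 9 rose. Of all 17625 genes tested, 35.0% were called lower and 67.3% in either direction at an edgeR adjusted p under 0.05, and the median log2 fold change was -0.06, against -1.12 over the 9 genes. PRKDC, XRCC5 and FANCD2 did not pass the test. The auxin libraries lay below the controls without overlap for 8 of 9 genes, beside 46.3% of all genes below and 44.7% above without overlap. Genes as long as these 9 were also called lower more often than genes in general: of 4147 tested genes within their range of length, 46.9% were called lower, with a median of -0.47. Values are relative to the other reads of a library, so a change shared by all genes cannot be seen.

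Among the kinases, ATM stood at 475.9 and 423.9 CPM in the controls, against 200.9 and 160.2 CPM after auxin. The groups did not overlap, and ATM fell by 1.32 on the log2 scale (SE 0.20, edgeR adjusted p = 0.00861). ATR, the kinase of stalled forks, stood at 393.1 and 374.6 CPM in the controls, against 139.8 and 115.0 CPM after auxin. Its groups lay farther apart than those of ATM, and it fell by 1.59 (SE 0.18, edgeR adjusted p = 0.00506). CHEK1 encodes the checkpoint kinase that ATR activates. It stood at 84.1 and 84.0 CPM in the controls, which were nearly equal, and at 48.8 and 40.8 CPM after auxin. It fell by 0.91 (SE 0.17, edgeR adjusted p = 0.0149), and stood at -0.95 without auxin replicate 1 and -0.79 without auxin replicate 2.

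The recombination genes had the smallest standard errors of the 9. BRCA1, a ubiquitin ligase subunit that promotes resection of broken ends, stood at 192.2 and 177.8 CPM in the controls, against 60.8 and 62.0 CPM after auxin. It fell by 1.59 (SE 0.15, edgeR adjusted p = 0.00421). BRCA2, a core protein of homologous recombination, stood at 162.4 and 161.7 CPM in the controls, against 64.2 and 61.2 CPM after auxin. It fell by 1.37 (SE 0.15, edgeR adjusted p = 0.00476). For both genes the gap between the groups was many times the gap within them. Reads over partial pseudogene copies of BRCA1 elsewhere on chromosome 17 could not be separated from these counts.

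Of the Fanconi partners, FANCI passed the test and FANCD2 did not. FANCI and FANCD2 form the clamp that is ubiquitinated at crosslinks. FANCI stood at 270.8 and 236.3 CPM in the controls, against 132.7 and 100.2 CPM after auxin, and fell by 1.12 (SE 0.21, edgeR adjusted p = 0.0143). FANCI stood at -1.24 without auxin replicate 1 and at -0.94 without auxin replicate 2. FANCD2 stood at 162.2 and 134.2 CPM in the controls, against 133.8 and 102.4 CPM after auxin. Its groups met almost at their edges, and its log2 fold change of -0.33 (SE 0.21, 95% interval -0.88 to 0.23) did not pass (edgeR adjusted p = 0.217). FANCD2 has partial pseudogene copies, which leaves its counts uncertain.

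The end joining genes had the largest standard errors. PRKDC (chromosome 8, 47773108 to 47960183, minus strand), the most densely read of the 9, stood at 1788 and 1270.2 CPM in the controls, against 1387 and 898.7 CPM after auxin. Its groups overlapped, and its log2 fold change of -0.42 (SE 0.33, 95% interval -1.27 to 0.43) had an edgeR adjusted p of 0.292. XRCC5 stood at 601.1 and 492.4 CPM in the controls, against 405.5 and 288.0 CPM after auxin. The groups did not overlap, but the log2 fold change of -0.66 (SE 0.25) missed the threshold with an edgeR adjusted p of 0.0653. It passed in DESeq2 at -0.60.

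**Figure D2:**
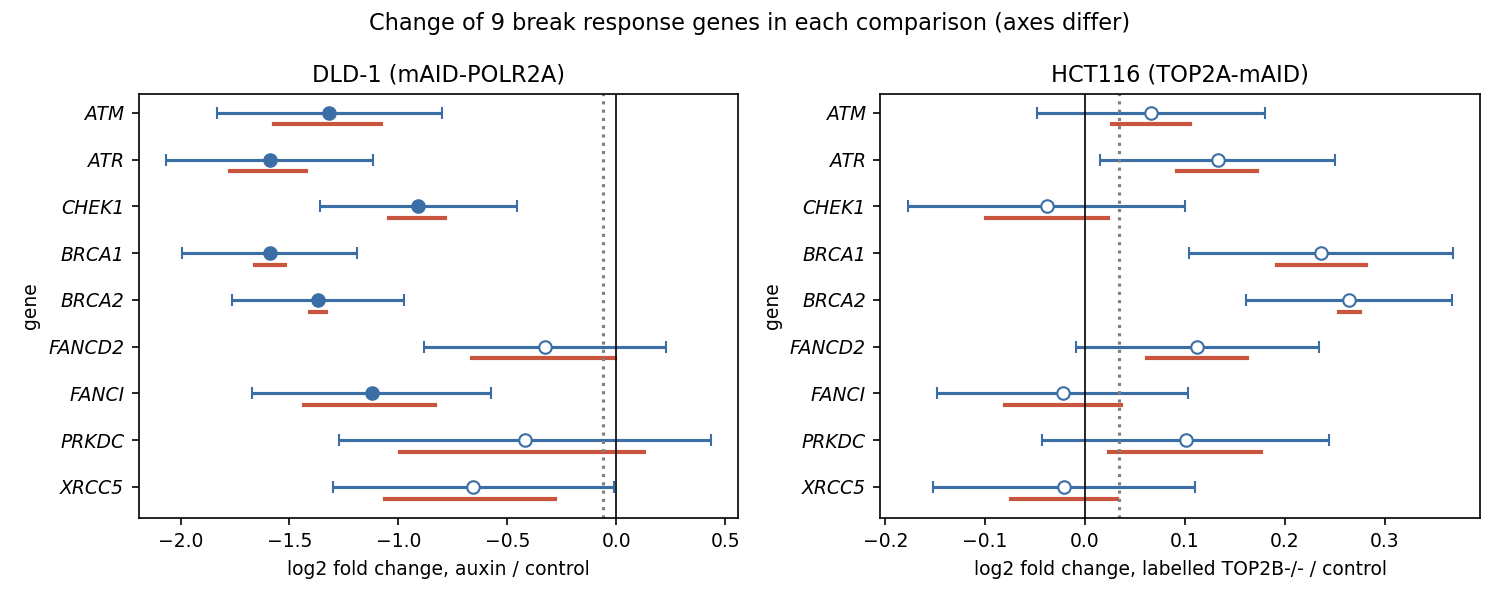
Log2 fold change (x axis) of each gene (y axis) in DLD-1, auxin against control (left), and in HCT116, labelled TOP2B-/- against control (right), on axes of different width. Points are edgeR estimates with 95% intervals, filled where the adjusted p was under 0.05, red bars span the 4 differences between single libraries, and the dotted line is the median of all genes tested. In DLD-1 ATR and BRCA1 lie farthest to the left at -1.59, and in HCT116 no point is filled.

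Ratios of reads between 2 genes of the same library do not depend on how libraries are scaled, and 4 pairs of the 9 genes were chosen after their values were seen. BRCA1 had 1.18 and 1.33 reads per read of FANCD2 in the DLD-1 controls, and 0.454 and 0.605 after auxin. BRCA2 had 1.00 and 1.20 reads per read of FANCD2 in the controls, against 0.480 and 0.598 after auxin. Among the kinases, ATR had 0.220 and 0.295 reads per read of PRKDC in the controls, against 0.101 and 0.128 after auxin. ATM gave 0.266 and 0.334 in the controls, against 0.145 and 0.178 after auxin. None of these 4 ratios overlapped between the groups. Each pair set a gene that was called against one that was not, so this is a description of reads and no sign of stability. With 2 libraries against 2, no exact test on a single ratio could pass a threshold of 0.05.

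The size and in part the direction of these changes moved with the scaling and with the silent-gene density. Library totals without TMM factors raised the median of all genes to 0.57. On that scale 19.2% of all genes were called lower and 42.8% higher. Of the 9, ATR (-0.96), BRCA1 (-0.95), BRCA2 (-0.73) and ATM (-0.68) were called lower, CHEK1 (-0.27) and FANCI (-0.49) were not, and PRKDC (0.22) and FANCD2 (0.31) had turned positive, although all 9 remained below the median of all genes. After auxin, BRCA1 had only 2.64 and 1.88 times the read density of silent genes, against 93.8 and 23.0 times in the controls. BRCA2 had 2.68 and 1.79 times, ATR 3.80 and 2.18 times, CHEK1 3.36 and 1.96 times and ATM 4.83 and 2.69 times that density after auxin. PRKDC stayed farthest above it, at 26.1 and 11.8 times, with XRCC5 next at 14.7 and 7.30 times, and FANCD2 and FANCI lay between 3.34 and 6.39 times.

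**Figure D3:**
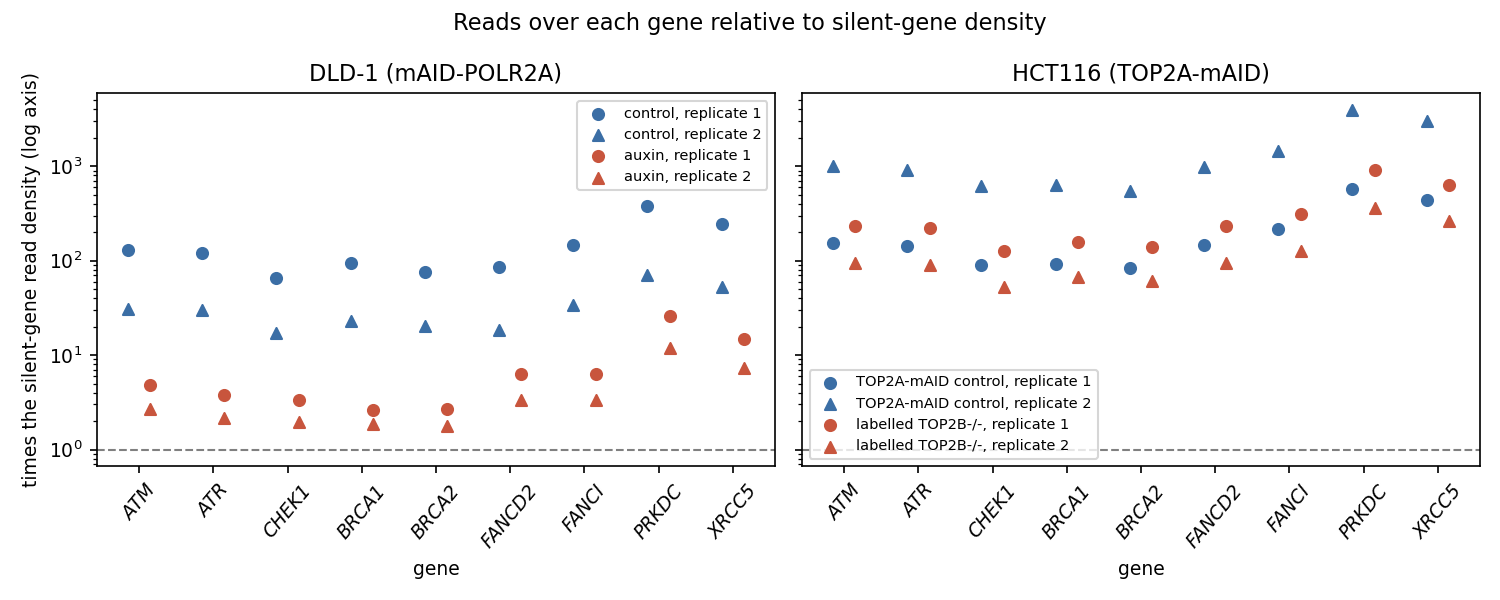
Reads per kb over each gene (x axis) divided by the read density of silent genes in the same library (y axis, log scale), for DLD-1 (left) and HCT116 (right), with 1 point per library and a dashed line at the silent-gene density. The DLD-1 auxin libraries lie between 1.79 and 26.1 times the silent-gene density, and for each gene below every other library.

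When the silent-gene density was subtracted from the counts, 4 of 9 genes were called lower and 3 called higher by edgeR, beside 32.1% and 27.7% of all genes, so that neither count stood far from the share of all genes. The median over the 9 was -0.30 against -0.16 over all genes, with 5 of them below that value and 4 above. The genes lower on that scale were BRCA1 (-1.11), BRCA2 (-0.93), ATR (-0.90) and ATM (-0.47). PRKDC (0.80, edgeR adjusted p = 0.0190), FANCD2 (0.65, edgeR adjusted p = 0.0113) and XRCC5 (0.51, edgeR adjusted p = 0.0155) were called higher, and CHEK1 (-0.30) and FANCI (-0.16) were not called. Among the alternative settings that left no library out, ATR, BRCA1 and BRCA2 were called lower in all. ATM was called lower in all of them except 1 RUVs factor in DESeq2 (-0.93, adjusted p = 0.139). CHEK1 and FANCI were not called with library totals, background-subtracted counts or 1 RUVs factor, and were called lower in the rest. Of the 9, only the falls of ATR, BRCA1 and BRCA2 thus passed in every such setting. For PRKDC, XRCC5 and FANCD2 no direction can be given.

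**Figure D4:**
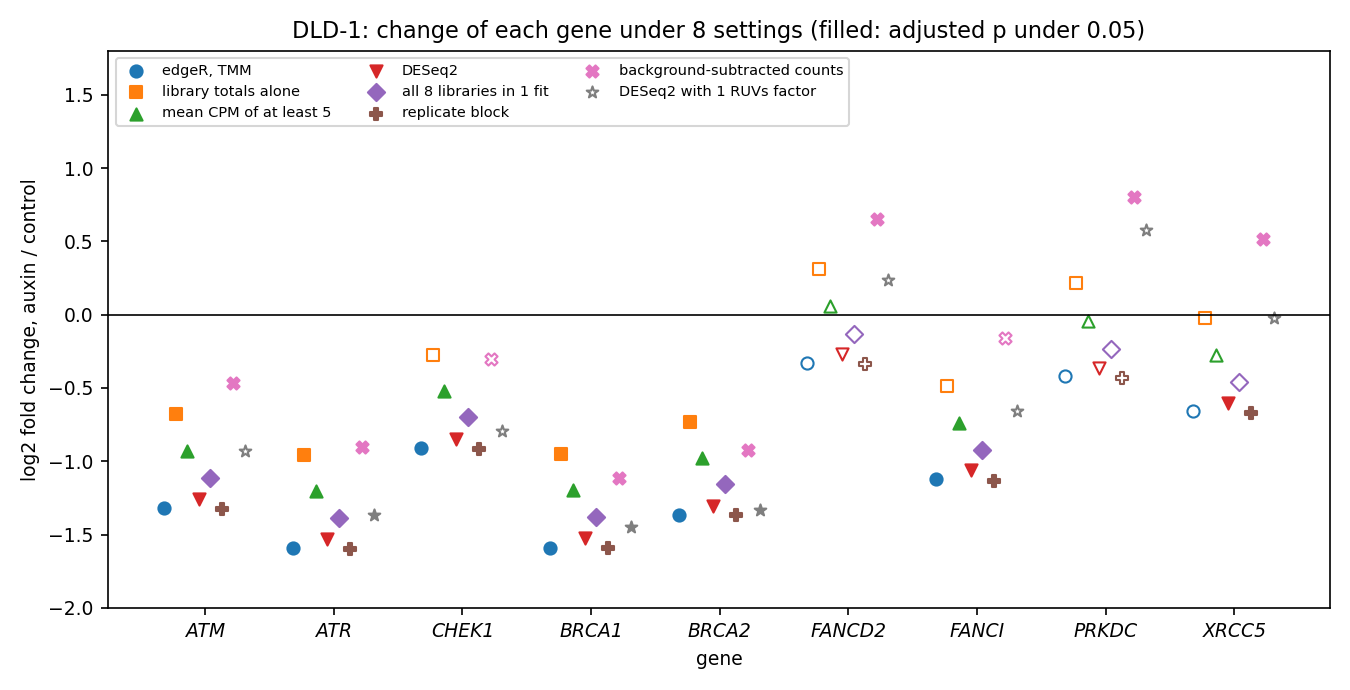
Log2 fold change of each gene in DLD-1 (y axis, auxin against control) under 8 settings, with filled symbols where the adjusted p was under 0.05. ATR, BRCA1 and BRCA2 stay below 0 and filled in all 8, whereas PRKDC, FANCD2 and XRCC5 cross 0 and are called higher with background-subtracted counts.

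Length and cell cycle membership are set beside the 9 changes as descriptions, and their part was not tested. Spearman's rho between length and log2 fold change was -0.10 across the 9 genes in DLD-1 and 0.32 in HCT116, given as a description across genes that share libraries. Of the 5 genes known to rise at the start of S phase, BRCA1, BRCA2, FANCI and CHEK1 fell while FANCD2 did not pass, and of the 4 others ATM and ATR fell while PRKDC and XRCC5 did not pass. Of 12 genes listed as E2F-driven genes of S phase, 8 fell, beside 35.0% of all genes called lower. With silent-gene density subtracted, 3 of the 12 were lower and 4 higher, beside 32.1% and 27.7% of all genes. MKI67, on that list although it marks cycling cells and not S phase alone, fell most of the 12, by 2.28 (SE 0.26, edgeR adjusted p = 0.00510).

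The 9 genes were set among 90 further genes of break repair, matched from 93 that were listed by role. The other 3 were not analysed here. In DLD-1, 67 of 90 were called lower and 0 higher, with a median of -1.07, beside 35.0% called lower and a median of -0.06 over all genes. Background-subtracted counts gave 47 lower and 11 higher (median -0.91), beside 32.1% and 27.7% of all genes. Library totals gave 38 lower and 7 higher (median -0.43), beside 19.2% and 42.8% of all genes. Fits without an auxin library leave 1 library in that group, so their calls are not counted here.

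By role, 9 of 11 genes of break sensing and end resection were called lower (median -1.38), as were 10 of 13 of checkpoint signalling (median -0.93) and 10 of 14 of the chromatin response (median -1.03). In homologous recombination 12 of 18 were called lower (median -0.88), in the Fanconi pathway 14 of 18 (median -1.23), in end joining 9 of 11 (median -1.49) and in joining by polymerase theta and PARP1 3 of 5 (median -1.06). End joining thus held 9 called genes although PRKDC and XRCC5 were not called. On library totals, 6 of 11 were called lower for sensing, 6 of 13 for checkpoint signalling and 7 of 14 for chromatin. The counts were 5 of 18 for recombination, 8 of 18 for the Fanconi pathway and 5 of 11 for end joining. In joining by polymerase theta and PARP1 it was 1 of 5. Called higher were 2 genes of end joining, 0 of sensing and 1 of each other role. Of all genes 19.2% were lower and 42.8% higher on that scale. With silent-gene density subtracted, 8 were lower and 1 higher for sensing, 8 and 1 for checkpoint signalling and 7 and 1 for chromatin. They were 9 and 3 for recombination, 7 and 2 for the Fanconi pathway and 6 and 1 for end joining. Joining by polymerase theta and PARP1 had 2 of each, beside 32.1% and 27.7% of all genes.

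The genes of the wider list that fell most were RIF1, ETAA1 and RAD9A. RIF1, which shields ends from resection, had 441.2 and 410.5 CPM in the controls, against 67.6 and 59.5 CPM after auxin. It fell by 2.74 (SE 0.18, edgeR adjusted p = 0.00421), and stood at -2.09 after subtraction of the silent-gene density. ETAA1, an activator of ATR, had 53.8 and 69.6 CPM in the controls, against 11.4 and 7.27 CPM after auxin. It fell by 2.72 (SE 0.31, edgeR adjusted p = 0.00513). RAD9A, a subunit of the clamp through which ATR is activated, had 64.0 and 47.8 CPM in the controls, against 10.8 and 8.0 CPM after auxin. It fell by 2.57 (SE 0.28, edgeR adjusted p = 0.00470). All 3 were lower than any of the 9 genes by log2 fold change.

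**Figure D5:**
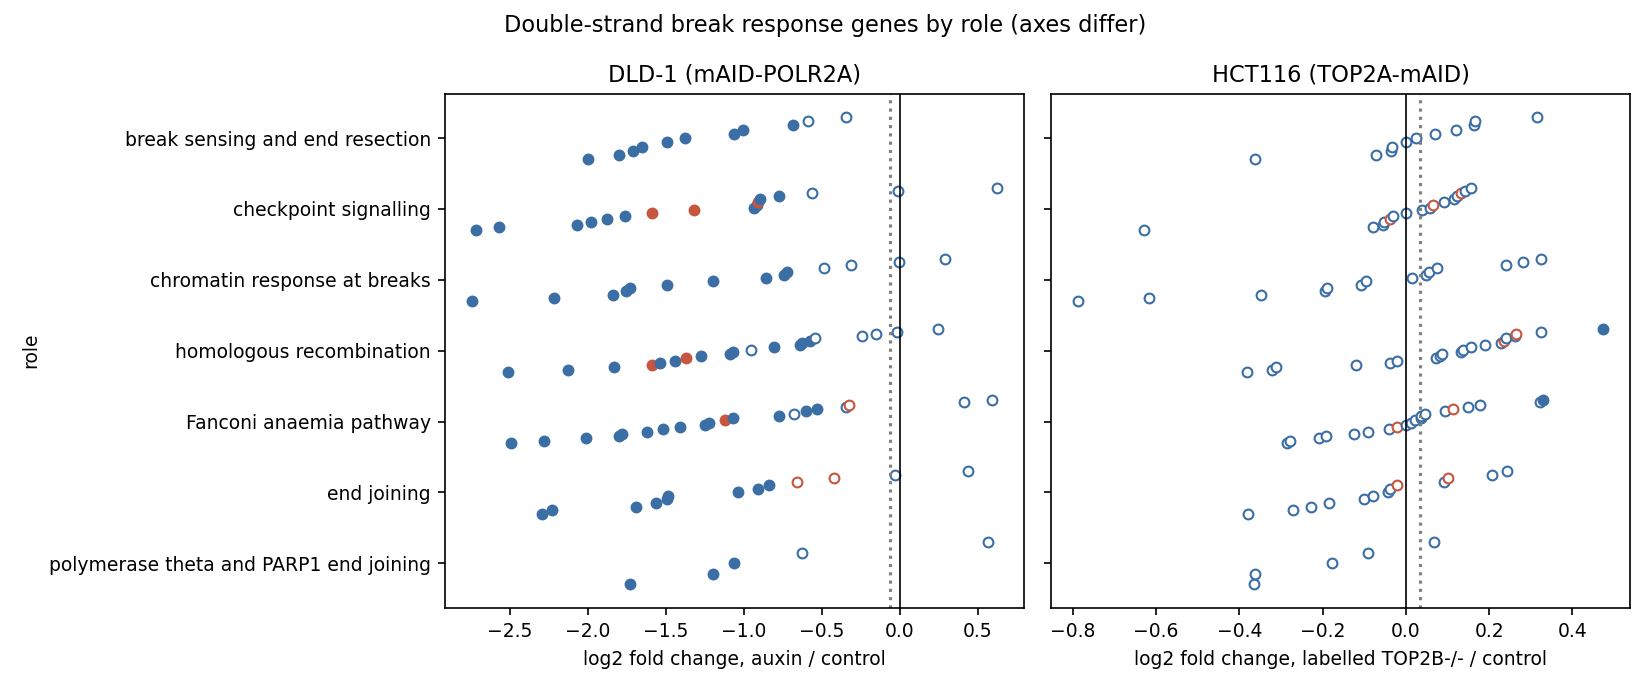
Log2 fold change (x axis) of the 90 further break response genes (blue) and the 9 genes (red) by role (y axis), in DLD-1 (left) and HCT116 (right) on axes of different width, filled where the edgeR adjusted p was under 0.05. The dotted line is the median of all genes tested. In DLD-1 most points of every role are filled and lie left of 0, and in HCT116 the 2 filled points are GEN1 and FANCL.

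The second comparison set the group labelled TOP2B-/- against TOP2A-mAID controls in HCT116. By edgeR 0 of 9 genes were called, while ATR, BRCA1 and BRCA2 had an unadjusted p under 0.05, and DESeq2 called BRCA1 and BRCA2 higher. Of all 15273 genes tested, 3.41% were called by edgeR. DESeq2 called 10.3% of 18041 genes with reads in either direction and 4.38% as higher. The median log2 fold change was 0.10 over the 9 genes, 0.03 over all genes, and 0.10 over the 4126 tested genes in the same range of length. The 95% intervals of the 9 changes, not adjusted for the number of genes, ran from -11.6% to 29.0% as differences from control, so larger changes of these genes lay outside them.

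The recombination genes had the largest values. BRCA2 stood at 109.7 and 110.6 CPM in the controls, against 131.8 and 132.7 CPM in the group labelled TOP2B-/-. The groups did not overlap, and the log2 fold change of 0.26 (SE 0.037) missed the threshold with an edgeR adjusted p of 0.0536, while DESeq2 gave 0.25 with an adjusted p of 0.00361. With no library left out, BRCA2 was called higher with DESeq2, library totals, a mean CPM of at least 5 and background-subtracted counts. The crossed replicate block, added after seeing the data, also called it. It was not called with no filter, the replicate block, all 8 libraries, 1 RUVs factor or outside chromosome 20. Adjusted p of these edgeR and DESeq2 fits ran from 0.00361 to 0.813. BRCA1 stood at 117.2 and 124.4 CPM in the controls, against 142.1 and 142.5 CPM in the group labelled TOP2B-/-. These groups did not overlap either, and the log2 fold change of 0.24 (SE 0.048) had an edgeR adjusted p of 0.0915 and a DESeq2 adjusted p of 0.0205. BRCA1 was called higher with DESeq2, a mean CPM of at least 5 and background-subtracted counts, and in no other fit that left no library out.

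Values of the kinases lay closer to 0. ATR stood at 287.0 and 284.3 CPM in the controls, against 320.4 and 305.9 CPM in the group labelled TOP2B-/- (log2 fold change 0.13, SE 0.042, edgeR adjusted p = 0.184). ATM stood at 351.6 and 356.7 CPM against 378.2 and 363.3 CPM (0.07, SE 0.041, edgeR adjusted p = 0.421). In both, all libraries of the group labelled TOP2B-/- were above the controls by a margin that did not pass the test. CHEK1 stood at 71.0 and 75.2 CPM against 72.2 and 70.2 CPM, with overlapping groups (-0.04, SE 0.050, edgeR adjusted p = 0.678).

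FANCD2 stood at 172.4 and 177.5 CPM in the controls, against 193.0 and 185.2 CPM in the group labelled TOP2B-/-, without overlap (0.11, SE 0.044, edgeR adjusted p = 0.244). FANCI stood at 245.7 and 256.6 CPM against 251.8 and 242.7 CPM, with overlap (-0.02, SE 0.045, edgeR adjusted p = 0.775). The difference between these partners of the clamp was not tested. PRKDC stood at 1670 and 1747 CPM against 1887 and 1777 CPM, without overlap (0.10, SE 0.052, edgeR adjusted p = 0.343). XRCC5 stood at 663.9 and 705.4 CPM against 679.0 and 670.1 CPM, with overlap (-0.02, SE 0.047, edgeR adjusted p = 0.792). Groups did not overlap for 6 of the 9 genes, with the group labelled TOP2B-/- above. Over all genes tested, 27.6% lay above without overlap and 27.6% below, and 0 of these 6 genes were called by edgeR.

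Of the 90 further break response genes in HCT116, 2 were called higher and 0 lower by edgeR (median 0.01). Of all genes 3.41% were called by edgeR in either direction, and the count of 2 did not exceed that share. DESeq2 called 12, 6 in each direction, beside 10.3% of all genes with that tool. GEN1, a resolvase of Holliday junctions, had 100.1 and 104.6 CPM in the controls, against 137.1 and 147.3 CPM in the group labelled TOP2B-/-. It rose by 0.47 (SE 0.057, edgeR adjusted p = 0.0419, range over alternatives 3.19e-07 to 0.427). FANCL, the ubiquitin ligase that acts on FANCD2 and FANCI, had 270.7 and 266.6 CPM in the controls, against 339.6 and 334.9 CPM in the group labelled TOP2B-/-. It rose by 0.33 (SE 0.036, edgeR adjusted p = 0.0374, range over alternatives 1.51e-07 to 0.842). Fits without a library leave 1 library in a group, so their calls are not read for either gene. With the replicate block 0 of all 15273 genes were called.

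By role, the medians in HCT116 ran from -0.18 over the 5 genes of polymerase theta and PARP1 joining to 0.11 over the 18 of homologous recombination. Of the 18 recombination genes 12 were above 0 and of the 11 end joining genes 8 were below 0, as counts without a test. Of the 12 genes listed as E2F-driven, PCNA was called lower (-0.79, SE 0.10, edgeR adjusted p = 0.0456), and none was called higher. PCNA lies on chromosome 20.

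Neighbouring gene models were examined since reads of overlapping genes may be shared. No overlapping model was found for 6 of the 9 genes. ATM starts 194 bp from NPAT, a coactivator of histone genes read in the opposite direction. In DLD-1 NPAT had a log2 fold change of -0.45 (SE 0.18, edgeR adjusted p = 0.0771), and ATM had 3.89 and 3.74 reads per read of NPAT in the controls, against 2.11 and 2.08 after auxin. The difference between these genes was not tested. In HCT116 the ratio lay between 3.29 and 3.53 in all 4 libraries.

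PRKDC starts 20 bp from MCM4, a subunit of the replicative helicase. In DLD-1 MCM4 had a log2 fold change of -0.34 (SE 0.22, edgeR adjusted p = 0.219), near the -0.42 of PRKDC, and PRKDC had 9.72 and 8.70 reads per read of MCM4 in the controls, against 9.40 and 7.97 after auxin, with overlap. In HCT116 this ratio was 7.97 and 7.27 in the controls, against 9.55 and 9.40 in the group labelled TOP2B-/-, without overlap.

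Overlaps on the opposite strand touched 3 genes. FANCD2OS covers 27.3% of the FANCD2 model and rose by 2.58 (SE 0.81, edgeR adjusted p = 0.0419) in DLD-1. ACRV1 covers 7.67% of CHEK1 and rose by 2.40 (SE 0.66, edgeR adjusted p = 0.0319). Summed over all DLD-1 libraries, their reads equalled 3.13% of those of FANCD2 and 2.32% of those of CHEK1. These sums are weighted to the deeper controls. FANCD2OS and ACRV1 rose in that fit while FANCD2 and CHEK1 did not, so the shares after auxin were larger than these. Silent-gene density rose as well, from 2.24% and 9.02% of all counts in the controls to 39.5% and 59.5% after auxin. Whether the rises of FANCD2OS and ACRV1 exceed it was not tested. POLG, the mitochondrial DNA polymerase, covers 1.13% of FANCI and fell by 1.84 (SE 0.22, edgeR adjusted p = 0.00525). Reads over the whole POLG model, summed over the libraries of a line, equalled 27.7% of those of FANCI in DLD-1 and 50.9% in HCT116. No source used here states whether strand was used in counting, so reads of these pairs cannot be told apart within the overlaps.

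The genes most like the mean of the 9 over the 8 libraries, centred within each line, were PSMD1, ZNF552, HIF1AN, DNAJB6 and MYO5C, with Pearson's r from 0.9987 to 0.9997. Of 15205 genes tested in both lines, 3781 had r above 0.95, and the 4 DLD-1 libraries span most of the range. PSMD1 had log2 fold changes of -1.22 in DLD-1 and 0.13 in HCT116, beside medians of -1.12 and 0.10 over the 9 genes. The change in DLD-1 and that in HCT116 were measured under different treatments and tables, and their difference was not tested.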

How the data were processed

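Factory-seq libraries (TruSeq RNA kit) of 4 groups with 2 libraries each were grouped by GEO's labels. The authors deposited raw read counts per RefSeq gene model, with introns, in 1 table per cell line. The submitters' processing notes name STAR, DESeq2 and hg38 without versions. No source used here states the counting tool, its settings or its use of strand. The authors' tables of changed genes (fold changes, p-values, normalized values) were not used. The paper supplied describes another experiment and gave no design.

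Each comparison was fitted on its 4 libraries, over all genes, with edgeR 4.0.16 (R 4.3.3) by its quasi-likelihood method (filterByExpr, TMM, two-sided, Benjamini-Hochberg, threshold 0.05, 2 residual degrees of freedom). Standard errors were derived from the F statistic, and 95% intervals used the total degrees of freedom. Sums of markers and lists are on library totals. Silent genes were the lowest 20% of models of at least 5000 bp by reads per kb in controls of the other line, chromosome Y left out. Subtracted counts were the counts less that density times length, floored at 0. Alternatives were DESeq2 1.42.0 (also with 1 RUVs factor), library totals, other filters, left-out libraries, a replicate block, all 8 libraries, thinning and genes outside chromosome 20. A crossed replicate block was added after seeing the data. The fits were tested on simulated data. Members, lists and tests were chosen with earlier results of these data known. Named were the 9 genes, the 3 of the wider list that fell or rose most (or all called, where 5 or fewer), overlapping or head-to-head models within 2000 bp, and the 5 genes most like the mean of the 9. A result for 1 gene of a context list is not reported here.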

Additional observations from a re-analysis of the deposited data

How the results depend on the processing

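In DLD-1, called genes among the 9 went from 6 to 3 with 1 RUVs factor, stayed between 4 and 6 with a library left out, and were 7 with the replicate block, which added XRCC5 (-0.67). The 67 further genes became 31 with 1 RUVs factor, 21 to 60 with a library left out, and 72 with the replicate block. Reversed values were PRKDC at 0.22 (library totals), 0.80 (background-subtracted) and 0.58 (RUVs), XRCC5 at 0.51 (background-subtracted), and FANCD2 at 0.31 (library totals), 0.056 (mean CPM of at least 5), 0.65 (background-subtracted) and 0.24 (RUVs).

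In HCT116, called genes among the 9 went from 0 to 1 with library totals and 2 with DESeq2. They were 2 at a mean CPM of at least 5, 2 with background-subtracted counts and 1 with the crossed replicate block. The 2 further genes became 4, 12, 8, 17 and 10 in the same order, and 1 with no filter. They became 0 with the replicate block, with all 8 libraries and outside chromosome 20. Over all genes the calls were 734, 1851, 1221, 2289 and 1808 in the first order, out of 11174 to 18041 genes tested. They were 424 with no filter, 0 with the replicate block, 5 with all 8 libraries and 229 outside chromosome 20. Calls with a library left out are not given here either. Reversed values near 0 were ATM at -0.0054 to 0.095 with a library left out (below 0 without replicate 1 of the group labelled TOP2B-/-), XRCC5 at 0.0025 (library totals), 0.020 (background-subtracted) and 0.0023 (RUVs), and FANCI at 0.0011 (library totals), 0.016 (background-subtracted) and -0.091 to 0.0037 with a library left out (above 0 without replicate 2 of that group). The causes were not tested.

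Deviations of same-numbered libraries correlated at 0.57 in DLD-1 and -0.83 in HCT116 across genes, and the labels tie numbers to no batch. Of the values of single genes, fits with a library left out included, 206 kept direction and side of the threshold. Of the others, 15 reversed, 11 passed it newly and 11 no longer passed. The shallow auxin libraries, with up to 59.5% of reads at silent-gene density, limit every DLD-1 value.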

Other observations

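ATM, ATR and the product of PRKDC belong to a kinase family whose proteins are folded by the TTT chaperone. In DLD-1 all 6 of the other listed family and chaperone genes fell, with a median log2 fold change of -1.42. Of all genes 35.0% were called lower in that fit. TRRAP, a scaffold of histone acetyltransferases, fell by 1.90 (SE 0.21, edgeR adjusted p = 0.00481). SMG1, the kinase of nonsense-mediated decay, fell by 1.79 (SE 0.22, edgeR adjusted p = 0.00564). With silent-gene density subtracted, 3 of the 6 were lower and 0 higher, beside 32.1% and 27.7% of all genes. On library totals 3 of the 6 were lower, beside 19.2% of all genes.

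In HCT116 the chaperone subunit TTI1 was the 1 gene of these 6 that was called, and fell by 0.59 (SE 0.054, edgeR adjusted p = 0.0302). It had 131.8 and 136.4 CPM on library totals in the controls and 89.7 and 91.1 CPM in the group labelled TOP2B-/-. TTI1, like PCNA, lies on chromosome 20.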
